A study of Drosophila mojavensis with 97 samples.

Results

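The 4 genes described here, *phantom*, *disembodied*, *shadow*, and *shade*, encode cytochrome P450 enzymes of ecdysteroid synthesis. They belong to the Halloween genes of *Drosophila melanogaster*, in which the first 3 add hydroxyl groups to a sterol precursor one after the other until ecdysone is formed, and *shade* adds the hydroxyl group that turns ecdysone into the more active hormone. The hormone binds a nuclear receptor and drives molting and metamorphosis. In adult *D. melanogaster* females the ovarian follicle cells make ecdysteroids, which act in oogenesis, and *shade* is also used in peripheral tissues such as the fat body. *Cyp18a1* encodes a P450 that inactivates the hormone, and in *D. melanogaster* it lies beside *phantom*. The 4 members were chosen by name, as the rows FBtr0161910 (*phantom*, GI11185), FBtr0164613 (*disembodied*), FBtr0160813 (*shadow*), and FBtr0162217 (*shade*), and all 4 were found among the 14528 transcripts on the array. The study named them as temperature responsive from these arrays, so that the direction of their temperature differences is not independent evidence. For *phantom* not every direction found here was the one that the study reported, as described below. Gene levels are not compared with each other, since probes differ.

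Wild-type *D. mojavensis* females came from 4 laboratory populations, 2 from Baja California, which are Punta Prieta (PP) and San Quintin (SQ), and 2 from the mainland, which are Punta Onah (PO) and Organ Pipe National Monument (OPNM). Each was 1 stock, and that of OPNM was built by combining isofemale lines. The flies were reared from egg to adult on fermenting agria or organ pipe cactus, held as adults on banana food, and kept when about a week old for 12 hr at 15, 25, or 35°C. RNA from groups of about 30 females was hybridized to 97 arrays in 24 groups of population, cactus, and temperature, with 4 arrays in each but PP on agria at 35°C, which had 5. The deposited values are log2 fluorescence after RMA, a summary over the probes of each transcript. One unit is a doubling, and no true zero exists on this scale. Per the study's methods each replicate was a separate group of females kept at its temperature in a vial of its own. The methods count 4 replications in each of 24 treatments, fewer than the 97 arrays. Whether every array had its own group of females is thus not known, and all arrays were counted as independent. Whether the vials of a group held flies from separate rearing cultures is not stated, and p-values measure the spread between these arrays. In whole females, fewer cells of a type and less RNA per cell cannot be told apart.

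Array medians lay between 9.81 and 10.10 and interquartile ranges between 2.51 and 3.42. Among the arrays, 3 stood apart, each with a mean correlation of 0.90 with the others. They were replicate 4 of SQ on agria, replicate 1 of SQ on organ pipe cactus, and replicate 4 of PP on organ pipe cactus, all at 35°C, with interquartile ranges of 2.51, 2.52, and 2.74. Another 2 arrays, replicate 2 of OPNM and of PP on organ pipe cactus at 25°C, had mean correlations of 0.93, and the lowest among the remaining arrays was 0.94. In the 3 arrays *shadow* was at 10.39, 10.42, and 10.65, above every other array at 35°C, and *shade* at 8.35, 8.95, and 8.72 was likewise above the rest. *phantom* was the lowest of its group in each, at 8.59, 9.53, and 8.76. For the main comparisons and the correlations between genes, values without these arrays are given where they differ. Of 21 markers of cell types in whole females, 5 were paired with a row, which were 2 of 9 for follicle cells, 2 of 3 for flight muscle, 1 of 5 for fat body, and 0 of 4 for nurse cells and oocyte. The follicle cell markers *Vm26Aa* and *Vm26Ab*, which encode vitelline membrane proteins, averaged between 9.73 and 13.80 over single arrays, and the flight muscle markers *fln* and *Act88F* between 9.41 and 13.07.

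*phantom* ranged most widely over the 24 groups. The highest mean was in SQ on agria at 25°C (11.33) and the lowest in PO on organ pipe cactus at 35°C (8.77), a 5.88-fold difference (log2 difference 2.56, SE 0.31, limma adjusted p = 1.18e-09). *disembodied* spanned 2.23-fold between OPNM on agria at 15°C and PP on organ pipe cactus at 35°C. *shade* spanned 2.03-fold between SQ on agria at 15°C and OPNM on organ pipe cactus at 35°C. For *shadow* the span was 1.55-fold, between OPNM on agria at 15°C and SQ on organ pipe cactus at 25°C, and the difference did not pass the threshold of 0.01 (limma adjusted p = 0.0112). When the 24 group means of a gene were put in order, none of the 23 steps between neighbors passed the threshold for any of the 4 genes, so that the order is resolved only between groups farther apart. Of the 276 pairs of groups, *phantom* differed in 64, *disembodied* in 47, *shade* in 16, and *shadow* in 0 at an adjusted p under 0.01 in limma, where 2.68% of all pairs and transcripts passed. At an unadjusted p under 0.05 the counts were 146, 129, 71, and 61. Without the 3 arrays that stood apart the counts at an adjusted p under 0.01 were 77, 46, 41, and 37, an alternative chosen after seeing the data. The shares of all pairs and transcripts were not computed for the unadjusted p or without the 3 arrays. Nothing is read from those counts. Temperature held 58.3% of the sum of squares among the 24 means of *phantom*, 74.4% for *disembodied*, 59.4% for *shadow*, and 63.9% for *shade*. Cactus and region held 10.8% and 11.8% for *phantom*, while for the other 3 genes cactus held no more than 3.26% and region no more than 7.87%. Population within region held 2.81% for *phantom*, 8.13% for *disembodied*, 12.4% for *shadow*, and 2.42% for *shade*, more than region for *disembodied* and *shadow*. Interactions held 16.3%, 6.29%, 23.9%, and 26.6% in the same order, though no interaction test passed.

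**Figure D1:**
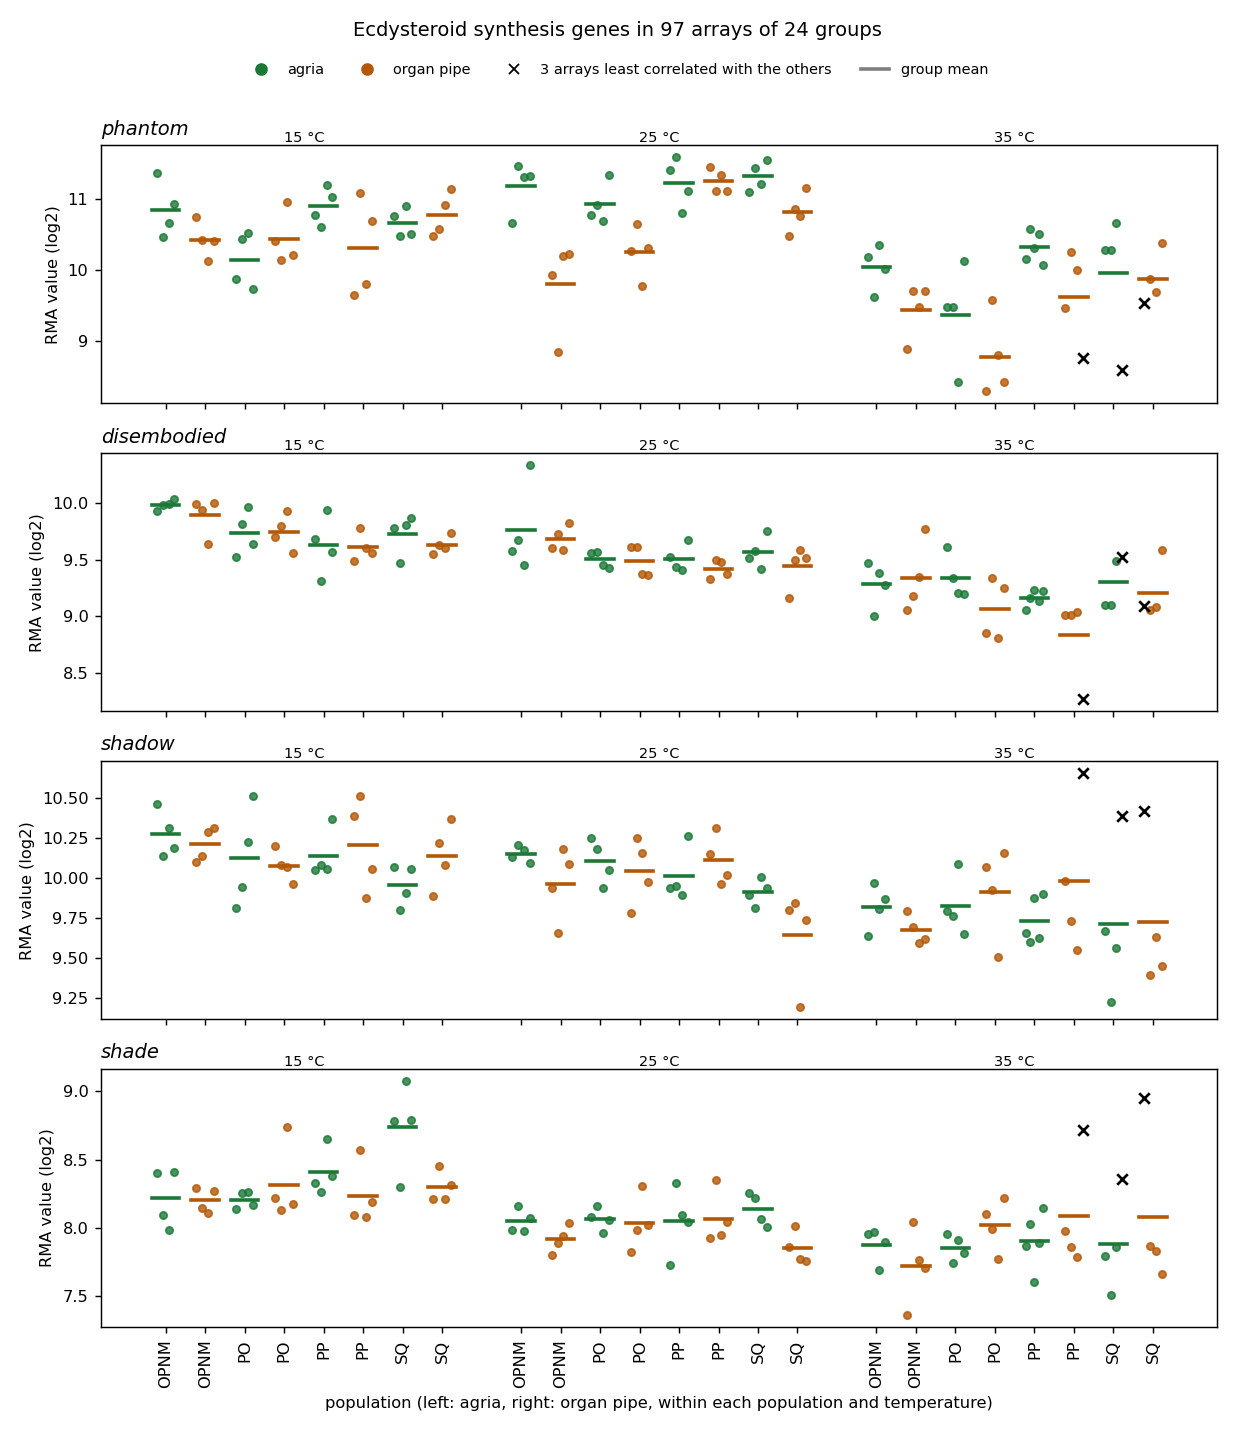
RMA values (log2) of the 4 genes in all 97 arrays, by temperature, population, and cactus. Points are arrays, bars are group means, and crosses mark the 3 arrays that stood apart; *phantom* was highest in SQ on agria at 25°C (mean 11.33) and lowest in PO on organ pipe cactus at 35°C (8.77).

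*phantom* encodes the enzyme that acts first of the 4. Errors in the following are SDs over 4 arrays, or 5 in PP on agria at 35°C. At 15°C on agria, mean log2 values were 10.85 ± 0.39 in OPNM, 10.14 ± 0.39 in PO, 10.90 ± 0.26 in PP, and 10.67 ± 0.20 in SQ. At 15°C on organ pipe cactus, mean log2 values were 10.43 ± 0.25 in OPNM, 10.43 ± 0.37 in PO, 10.31 ± 0.70 in PP, and 10.78 ± 0.30 in SQ. The 8 means at 15°C lay within a narrow band, from 10.14 to 10.90. At 25°C on agria, mean log2 values were 11.19 ± 0.36 in OPNM, 10.93 ± 0.29 in PO, 11.23 ± 0.35 in PP, and 11.33 ± 0.20 in SQ. At 25°C on organ pipe cactus, mean log2 values were 9.80 ± 0.65 in OPNM, 10.25 ± 0.36 in PO, 11.26 ± 0.17 in PP, and 10.82 ± 0.28 in SQ. On agria all 4 populations were thus close to 11, whereas on organ pipe cactus both mainland populations were lower than both Baja populations. At 35°C on agria, mean log2 values were 10.04 ± 0.31 in OPNM, 9.37 ± 0.71 in PO, 10.32 ± 0.22 in PP, and 9.95 ± 0.93 in SQ. At 35°C on organ pipe cactus, mean log2 values were 9.44 ± 0.39 in OPNM, 8.77 ± 0.58 in PO, 9.62 ± 0.66 in PP, and 9.87 ± 0.37 in SQ. At this temperature the array values ran from 8.29 to 10.67, with a median of 9.70, against 9.65 to 11.37, with a median of 10.55 at 15°C and 8.84 to 11.60, with a median of 11.01 at 25°C, so that the ranges overlapped. The residual SD of *phantom* around its group means was 0.44, larger than that of 93.5% of all transcripts, whose median was 0.26.

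*disembodied* encodes the enzyme that acts next. On agria at 15°C, the means were 9.99 ± 0.05 in OPNM, 9.74 ± 0.19 in PO, 9.63 ± 0.26 in PP, and 9.73 ± 0.18 in SQ. On organ pipe cactus at 15°C, the means were 9.90 ± 0.17 in OPNM, 9.75 ± 0.16 in PO, 9.61 ± 0.13 in PP, and 9.63 ± 0.08 in SQ. OPNM was highest on both cacti. On agria at 25°C, the means were 9.76 ± 0.39 in OPNM, 9.51 ± 0.07 in PO, 9.51 ± 0.12 in PP, and 9.57 ± 0.14 in SQ. On organ pipe cactus at 25°C, the means were 9.69 ± 0.11 in OPNM, 9.49 ± 0.14 in PO, 9.42 ± 0.08 in PP, and 9.44 ± 0.19 in SQ. In each of the 8 combinations of population and cactus the mean at 25°C was below that at 15°C. On agria at 35°C, the means were 9.29 ± 0.20 in OPNM, 9.34 ± 0.19 in PO, 9.16 ± 0.07 in PP, and 9.30 ± 0.24 in SQ. On organ pipe cactus at 35°C, the means were 9.34 ± 0.32 in OPNM, 9.06 ± 0.27 in PO, 8.83 ± 0.38 in PP, and 9.20 ± 0.26 in SQ. The 8 lowest of the 24 means were the 8 groups at 35°C. Single arrays ranged from 9.31 to 10.04, with a median of 9.76 at 15°C, from 9.16 to 10.34, with a median of 9.52 at 25°C, and from 8.27 to 9.78, with a median of 9.18 at 35°C.

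*shadow* encodes the enzyme that completes ecdysone. Means at 15°C on agria were 10.27 ± 0.15 in OPNM, 10.12 ± 0.31 in PO, 10.14 ± 0.15 in PP, and 9.96 ± 0.13 in SQ. Means at 15°C on organ pipe cactus were 10.21 ± 0.10 in OPNM, 10.08 ± 0.09 in PO, 10.21 ± 0.29 in PP, and 10.14 ± 0.20 in SQ. Of the 8 highest of the 24 means 6 were at 15°C. Means at 25°C on agria were 10.15 ± 0.05 in OPNM, 10.10 ± 0.14 in PO, 10.01 ± 0.17 in PP, and 9.91 ± 0.08 in SQ. Means at 25°C on organ pipe cactus were 9.97 ± 0.23 in OPNM, 10.04 ± 0.20 in PO, 10.11 ± 0.16 in PP, and 9.65 ± 0.30 in SQ. The lowest of all group means was that of SQ on organ pipe cactus, where the 4 arrays were at 9.19, 9.74, 9.80, and 9.85. Means at 35°C on agria were 9.82 ± 0.14 in OPNM, 9.82 ± 0.19 in PO, 9.73 ± 0.14 in PP, and 9.71 ± 0.49 in SQ. Means at 35°C on organ pipe cactus were 9.68 ± 0.09 in OPNM, 9.91 ± 0.29 in PO, 9.98 ± 0.48 in PP, and 9.72 ± 0.47 in SQ. The SDs of the 3 groups that hold the arrays standing apart were the largest of the 24. Single arrays ranged from 9.80 to 10.51, with a median of 10.09 at 15°C, from 9.19 to 10.31, with a median of 9.99 at 25°C, and from 9.23 to 10.65, with a median of 9.73 at 35°C. Without the 3 arrays the highest value at 35°C was 10.15.

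*shade* encodes the enzyme that makes the active hormone. The group means on agria at 15°C were 8.22 ± 0.22 in OPNM, 8.20 ± 0.06 in PO, 8.41 ± 0.17 in PP, and 8.74 ± 0.32 in SQ. The group means on organ pipe cactus at 15°C were 8.20 ± 0.09 in OPNM, 8.31 ± 0.28 in PO, 8.23 ± 0.23 in PP, and 8.30 ± 0.12 in SQ. These 8 means were the 8 highest of the 24, and SQ on agria led with arrays at 8.30, 8.78, 8.79, and 9.08. The group means on agria at 25°C were 8.05 ± 0.09 in OPNM, 8.06 ± 0.08 in PO, 8.05 ± 0.25 in PP, and 8.14 ± 0.12 in SQ. The group means on organ pipe cactus at 25°C were 7.92 ± 0.10 in OPNM, 8.04 ± 0.20 in PO, 8.07 ± 0.20 in PP, and 7.85 ± 0.12 in SQ. Every combination of population and cactus was lower at 25°C than at 15°C. The group means on agria at 35°C were 7.88 ± 0.13 in OPNM, 7.86 ± 0.09 in PO, 7.91 ± 0.20 in PP, and 7.88 ± 0.35 in SQ. The group means on organ pipe cactus at 35°C were 7.72 ± 0.28 in OPNM, 8.02 ± 0.19 in PO, 8.08 ± 0.43 in PP, and 8.08 ± 0.59 in SQ. PP and SQ on organ pipe cactus were the only combinations whose mean was not lower at 35°C than at 25°C, and both hold an array that stood apart. Single arrays ranged from 7.98 to 9.08, with a median of 8.26 at 15°C, from 7.73 to 8.35, with a median of 8.02 at 25°C, and from 7.36 to 8.95, with a median of 7.87 at 35°C, and without the 3 arrays the highest value at 35°C was 8.22.

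The temperature comparison asks how a short exposure changes expression. All 4 genes were lower at 35 than at 15°C, by 1.85-fold for *phantom*, 1.47-fold for *disembodied*, 1.32-fold for *shade*, and 1.27-fold for *shadow*, and in the same direction for every population on either cactus (8 of 8). Differences between equally weighted group means were tested with limma on all 97 arrays, with Benjamini-Hochberg adjustment over 483 comparisons and all transcripts and a threshold of 0.01. The 4 of 4 members past it stand beside 18.0% of all transcripts, 11.5% in the same direction, and nothing is read from this count since the study chose the genes for temperature. The median difference of the 4 genes was 0.48, and that of all transcripts was -0.02. For the same reason nothing is read from this gap. Between 25 and 35°C, *phantom* fell by 1.18 (SE 0.11, 2.26-fold, adjusted p = 3.36e-14). It was lower in 8 of 8 combinations, from 0.36 in OPNM to 1.64 in PP, both on organ pipe cactus. Of the 8 differences 5 passed, where 2.68% passed over all pairs of the 24 groups and all transcripts. In all but OPNM on organ pipe cactus the arrays did not overlap. How often arrays of other transcripts did not overlap was not computed, so nothing is read from that count. Only 9 of the 14528 transcripts fell by more. *disembodied* fell by 0.36 (SE 0.05) in the same step (adjusted p = 1.86e-07, 8 of 8). These 2 of 4 genes stand beside 12.5% of all transcripts, 7.02% of them higher at 25°C. For *shadow* the difference was 0.19 (SE 0.06) with an adjusted p of 0.0305, and for *shade* 0.09 (SE 0.06) with 0.421. Both passed without the 3 arrays, with 0.28 for *shadow* (limma adjusted p = 1.52e-05) and 0.18 for *shade* (0.00684). *phantom* fell by 1.07 without the 3 arrays. Without all 5 low-correlation arrays the *shade* difference was 0.16 and did not pass (0.0133).

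From 15 to 25°C the genes parted. *shade* fell by 0.31 (SE 0.06, limma adjusted p = 0.000151) and *disembodied* by 0.20 (SE 0.05, 0.00699), each in 8 of 8 combinations. The *shadow* difference of 0.15 did not pass (0.134), though it did with the array interquartile range as a covariate (0.21, adjusted p = 0.000417). *disembodied* was thus past the threshold in all 3 pairs of temperatures and lower at the higher one, as were 0.860% of all transcripts. These 2 of 4 members stand beside 6.07% of all transcripts, 4.36% of them higher at 15°C. The call for *disembodied* was lost when arrays were centred on their medians (difference 0.17, adjusted p = 0.0143), and without replicate 1, 2, or 3. *phantom* had the opposite sign, with a mean 0.29 higher at 25 than at 15°C (95% interval of 15 minus 25°C -0.50 to -0.07, adjusted p = 0.0988), in 6 of 8 combinations. It was lower at 25°C in OPNM and PO on organ pipe cactus, by 0.63 and 0.19, neither past the threshold, and the widest gap in the other direction was -0.95 in PP on organ pipe cactus (adjusted p = 0.0414). With the array interquartile range as a covariate the *phantom* difference passed (-0.39, adjusted p = 0.00169). With and without the covariate, its direction was opposite to the one that the study reported. Without the covariate the difference did not pass the threshold.

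The responses of the genes were set against each other within arrays, as the difference between 2 genes on the same array. Such a difference does not hold a shift in brightness shared by all transcripts of an array. It can still hold the spread of an array, its interquartile range. Over deviations from group means that range had r = 0.57 with *phantom* but -0.69 with *shadow* and -0.50 with *shade*. The comparison between genes was not repeated with the range removed, here or below. This comparison was added after seeing the data. Factor levels were permuted among the arrays within each combination of the other factors in 100000 draws (two-sided permutation test, adjusted over 30 tests). From 25 to 35°C *phantom* fell by 0.82 more than *disembodied*, by 0.98 more than *shadow*, and by 1.09 more than *shade* (adjusted permutation p = 6e-05 for each, where 1e-05 is the smallest unadjusted p that the draws can give). Between 15 and 25°C the *phantom* difference departed from that of *disembodied* by -0.48, from *shadow* by -0.44, and from *shade* by -0.59 (adjusted permutation p = 0.000171, 0.0003, and 6e-05). The direction was that of higher *phantom* at 25°C. *phantom* thus differed from each of the other 3 genes at both steps, and the same held without the 3 arrays. The genes have different probes, and whether these respond alike to a change was not tested. *shade* was dim, with a mean log2 value of 8.09, above 19.3% of all transcripts, against 55.9% for *phantom*. Among the others, the step from 15 to 25°C differed between *shadow* and *shade* by -0.16 (adjusted permutation p = 0.0108). The corresponding gap between *disembodied* and *shadow* was 0.05 (adjusted permutation p = 0.44). The 2 paired follicle cell markers, both vitelline membrane genes, also moved with temperature. *Vm26Aa* was 2.18 higher and *Vm26Ab* 1.62 higher at 25 than at 15°C, and they fell by 0.58 and 0.60 from 25 to 35°C, all past the threshold in limma. Over single arrays the mean of both ran from 9.73 to 13.25 at 15°C, from 12.91 to 13.80 at 25°C, and from 11.57 to 13.70 at 35°C. The fat body marker *Lsd-1* fell by 0.33 in the latter step, and the flight muscle markers did not pass in any pair of temperatures. For the first warming step the study reported higher expression of several vitelline membrane genes, but lower expression of several chorion genes. No chorion gene of the marker list was paired here, so whether follicle cell content changed was not tested. The part of cell composition in the temperature differences was not tested either.

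**Figure D2:**
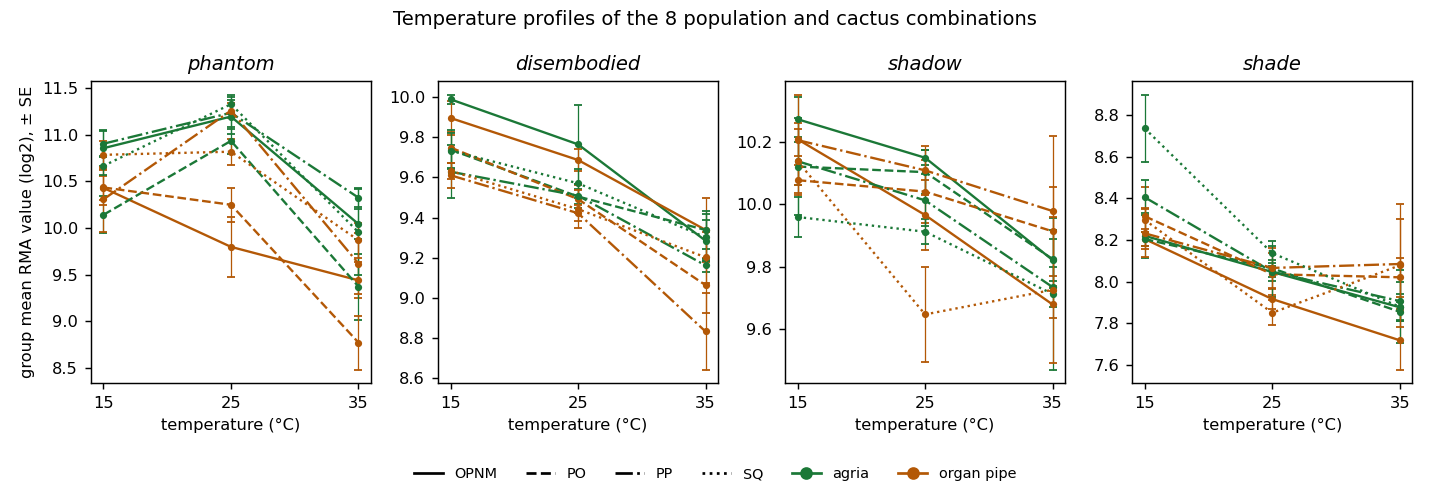
Group means of RMA values (log2, ± SE over 4 or 5 arrays) against temperature, with 1 line for each combination of population (line style) and cactus (color). *phantom* was highest at 25°C in 6 of the 8 combinations and lowest at 35°C in all 8, whereas *disembodied* declined at both steps in all 8.

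Rearing cactus was compared to ask whether the host used during development still showed in adults. *phantom* was higher in flies reared on agria, by 0.43 (SE 0.09) or 1.35-fold (limma adjusted p = 0.000377), with array values of 8.41 to 11.60, with a median of 10.66 on agria and 8.29 to 11.46, with a median of 10.24 on organ pipe cactus, which overlapped broadly. It was the 1 of 4 members past the threshold, beside 17.0% of all transcripts, 14.5% of them higher on agria. The share of members past the threshold was thus not far from that of all transcripts. The difference was positive in 9 of 12 combinations of population and temperature. Leaving out replicate 1 gave 0.37 and ended the call (adjusted p = 0.037), while the call held without any other replicate. The widest gap was in OPNM at 25°C, where the agria arrays were at 10.66, 11.31, 11.33, and 11.47 and those on organ pipe cactus at 8.84, 9.92, 10.20, and 10.22. The groups did not overlap (difference 1.40, adjusted p = 0.00105 in limma), and the lowest array, at 8.84, was one of the 5 of low correlation, without which they also did not overlap. PO at 25°C was the other combination without overlap, with agria arrays at 10.69, 10.78, 10.92, and 11.34 and organ pipe arrays at 9.77, 10.27, 10.31, and 10.65. There the difference of 0.68 was not past the threshold (limma adjusted p = 0.19). How often other transcripts did not overlap between cacti was not computed, so nothing is read from the lack of overlap. Over all temperatures the difference was 0.81 (SE 0.18) in OPNM (adjusted p = 0.00101; 0.70 without the 5 arrays), 0.43 in PP, 0.33 in PO, and 0.16 in SQ. Only that of OPNM passed, beside 9.82% of transcripts, and it was lost without replicate 1, 2, or 3 (adjusted p between 0.0101 and 0.0267). By temperature it was 0.15 at 15°C, 0.64 at 25°C (adjusted p = 0.00301, beside 7.34% of transcripts), and 0.50 at 35°C (0.0274), and the call at 25°C was lost without replicate 1, 2, or 3, with a difference of 0.53 at the least.

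For the other genes the agria minus organ pipe difference was 0.10 in *disembodied* (95% interval 0.01 to 0.18, limma adjusted p = 0.167), 0.01 in *shadow* (-0.09 to 0.10, 0.972), and 0.05 in *shade* (-0.05 to 0.14, 0.681). The sign for *shadow* turned to -0.04 with arrays centred on their medians. Within arrays the cactus difference of *phantom* exceeded that of *disembodied* by 0.33, that of *shadow* by 0.43, and that of *shade* by 0.38 (adjusted permutation p = 0.000736, 0.000736, and 0.00166). Markers of other tissues also stood higher on agria. The flight muscle genes *fln* and *Act88F* differed by 0.61 and 0.46, and the fat body marker *Lsd-1*, which encodes a lipid droplet protein, by 0.30, all past the threshold in limma, while *Vm26Aa* and *Vm26Ab* differed by 0.27 each and did not pass. The mean of both muscle markers over single arrays ran from 10.38 to 13.07 on agria and from 9.41 to 12.70 on organ pipe cactus. The part of these tissues in the *phantom* difference was not tested.

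**Figure D3:**
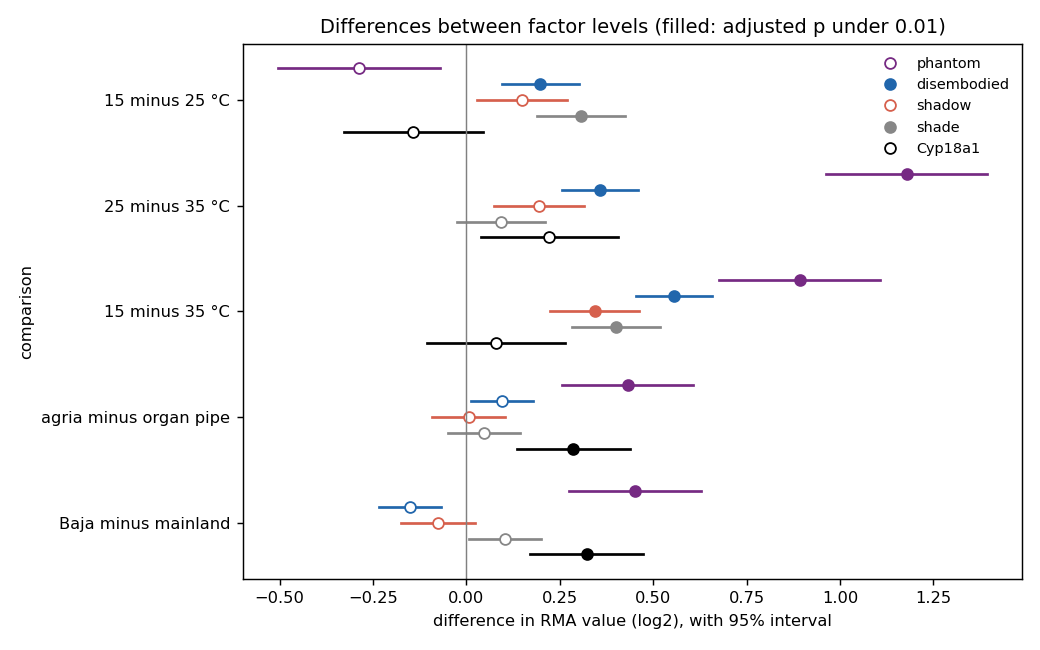
Differences between factor levels (log2, points) with 95% intervals (lines) for the 4 genes and *Cyp18a1*, where filled points passed the threshold. *phantom* differed by 1.18 between 25 and 35°C, by 0.43 between cacti, and by 0.45 between regions.

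Populations and regions were compared to ask how expression differs across the range of the species. *phantom* was higher in Baja than on the mainland by 0.45, or 1.37-fold, with both Baja populations above both mainland populations in 3 of 6 combinations of cactus and temperature. It was the 1 of 4 members past the threshold in limma, beside 9.68% of all transcripts, 5.07% of them higher in Baja. The Baja mean was higher by 0.29, 0.22, 0.43 on agria at 15, 25, and 35°C and by 0.11, 1.02, 0.64 on organ pipe cactus. On organ pipe cactus the regional difference was 0.59 (SE 0.13, adjusted p = 0.000671, beside 4.32% of transcripts; 0.0143 without replicate 2) and on agria 0.31 (SE 0.12, 0.123). At 25°C it was 0.62 (adjusted p = 0.00478, beside 3.01% of transcripts, and lost without replicate 1, 2, or 3), at 35°C 0.54 (0.0159), and at 15°C 0.20 (0.537). Mean *phantom* values were 10.61 in PP, 10.57 in SQ, 10.29 in OPNM, and 9.98 in PO. Of the 6 population pairs, PO was lower than PP by 0.62 (adjusted p = 0.000245, where 7.61% of transcripts passed) and lower than SQ by 0.59 (0.000721, 5.16%), and the other 4 pairs, between 0.04 and 0.32 in size, did not pass, beside 3.90% of transcripts for OPNM and PO, 6.22% for OPNM and PP, 7.63% for OPNM and SQ, and 1.09% for PP and SQ. The PO and SQ call was lost without replicate 1 or 3 (adjusted p = 0.0175 and 0.0328). A region is 2 populations, and on the 4 population means the same difference had an adjusted p of 0.248 in limma.

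*disembodied* had the opposite sign, lower in Baja in 6 of 6 combinations by 0.15 on average, which did not pass (limma adjusted p = 0.0137). With arrays centred on their medians it did (-0.16, adjusted p = 0.00301). Its order over populations was OPNM at 9.66, PO at 9.48, SQ at 9.48, and PP at 9.36, and only OPNM and PP differed past the threshold (by 0.30, SE 0.06, adjusted p = 0.000192). Without replicate 4 that difference was 0.19 and did not pass (adjusted p = 0.0233). *shadow* differed between regions by -0.08 (95% interval -0.17 to 0.02) and *shade* by 0.10 (0.01 to 0.20), neither past the threshold (adjusted p = 0.436 and 0.213), and no population pair passed for either gene. Without the 3 arrays that stood apart, *shadow* was lower in SQ than in OPNM by 0.24, than in PO by 0.24, and than in PP by 0.22 (limma adjusted p = 0.00139, 0.00159, and 0.00459), against 0.17, 0.17, and 0.18 with them. Within arrays the regional difference of *phantom* exceeded that of *disembodied* by 0.60 (adjusted permutation p = 6e-05), and that of *shade* exceeded that of *disembodied* by 0.25 (0.000433), with arrays and not populations as the unit. Beside these, *Vm26Aa* and *Vm26Ab* were higher in Baja by 0.71 and 0.38 and *Act88F* by 0.40, all past the threshold in limma. For *Act88F* the mean was 11.24 in OPNM, against 12.14 in PO, 12.10 in PP, and 12.08 in SQ, so that PO stood with Baja. The other flight muscle marker, *fln* (0.37, limma adjusted p = 0.0419), and the fat body marker *Lsd-1* (0.14, 0.085) did not pass. The mean of both follicle markers over single arrays ran from 10.86 to 13.80 in Baja and from 9.73 to 13.75 on the mainland, and its part was not tested.

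Interaction terms asked whether the effect of one factor differed with another. None of the 28 tests, 7 terms for each of 4 genes, passed in limma's moderated F test, and 0 had an unadjusted p under 0.05. The smallest unadjusted p was 0.075, for cactus by temperature in *phantom*, and the smallest adjusted p was 0.439, for population within region by cactus in *phantom*. Differences in the size of the *phantom* response between populations, cacti, or temperatures are therefore given above as values only. Of all transcripts, 0.0895% passed for population within region by cactus, 0.0344% for population within region by temperature, and 0 for the other 5 terms.

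Of a list of 44 genes of ecdysteroid synthesis, import, inactivation, reception, and response, 5 were paired with a row, the 4 members and *Cyp18a1* (FBtr0161656, GI10931). The remaining 39 were not analyzed here. *Cyp18a1* differed between cacti and between regions, as *phantom* did, and none of its 3 temperature differences passed. It was higher on agria by 0.29 (SE 0.08, limma adjusted p = 0.00852) and in Baja by 0.32 (SE 0.08, 0.00247, Baja higher in 6 of 6 combinations). The cactus call was lost with arrays centred on their medians (0.24, adjusted p = 0.0262), with the array interquartile range as a covariate (0.26, 0.0139), with quantile normalization repeated (0.27, 0.0131), and with no moderation of the variances (0.29, 0.0104). It was also lost without replicate 1, 2, or 3. The regional call was lost without replicate 1 or 2, and on 4 population means, where limma's adjusted p was 0.149. Between 25 and 35°C the difference was 0.22 (SE 0.09, 0.146) and between 15 and 35°C 0.08 (0.724). As for *phantom*, OPNM on organ pipe cactus at 25°C was low, with arrays at 9.05, 9.76, 10.76, and 10.96, and its lowest array was the one lowest for *phantom*. In that group's agria counterpart the arrays were at 10.81, 10.89, 11.33, and 11.72, so that the groups overlapped. Over the 24 group means *phantom* and *Cyp18a1* had r = 0.70, and over the 8 means within a temperature r = 0.80 at 15°C, 0.90 at 25°C, and 0.75 at 35°C. The deviations of arrays from their group means, chosen for comparison after seeing the data, had r = 0.65 (rho = 0.60, 97 arrays, adjusted permutation p = 4e-05 for both, over 4 pairs), 0.62 without the 2 arrays farthest from the median, and 0.52 without the 5 arrays of low correlation. In this measure 402 of the other transcripts had a higher r with *phantom* than *Cyp18a1* had. The deviations of *Cyp18a1* against those of *disembodied*, *shadow*, and *shade* had r = 0.22, -0.06, and 0.09 (rho = 0.25, 0.05, and 0.23, with adjusted permutation p of 0.127, 0.671, and 0.633 for r and 0.054, 0.687, and 0.0601 for rho). With the 3 arrays that stood apart left out these r were 0.19, 0.21, and 0.38, and with 5 arrays left out 0.23, 0.15, and 0.45, with no test, so that the value for *shade* was higher in both.

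**Figure D4:**
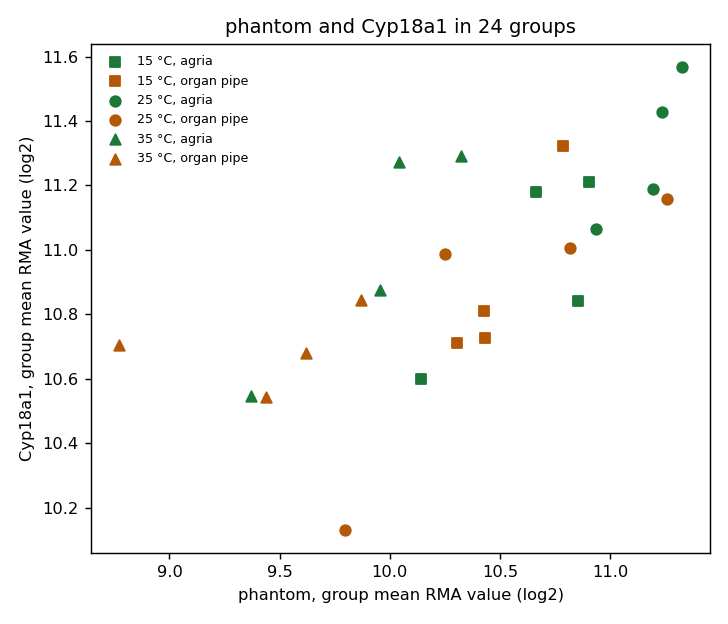
Group means (log2) of *Cyp18a1* against *phantom* for the 24 groups, with cactus as color and temperature as symbol. Both were highest in SQ on agria at 25°C, and the lowest *Cyp18a1* mean was that of OPNM on organ pipe cactus at 25°C (10.13).

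Correlation between the 4 genes was examined in 2 ways. Over the 24 group means, which hold the temperature differences, r was 0.64 for *disembodied* and *shadow*, 0.60 for *shadow* and *shade*, 0.55 for *phantom* and *disembodied*, 0.50 for *disembodied* and *shade*, 0.43 for *phantom* and *shadow*, and 0.39 for *phantom* and *shade*. Within a temperature, over 8 means, the signs were mixed. *shadow* and *shade* had r = -0.83 at 15°C and 0.66 at 25°C, and *disembodied* at 35°C had -0.78 with *shadow* and -0.77 with *shade*. When the 3 arrays that stood apart were left out, the last values were -0.24 and -0.60, and over all 24 means the 6 values then lay between 0.39 for *phantom* and *shadow* and 0.75 for *disembodied* and *shadow*. These are descriptions of means from shared arrays.

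Deviations of the 97 arrays from their group means hold no difference between groups. Across them, *shadow* and *shade* had r = 0.61 (rho = 0.45, two-sided permutation within groups with 100000 draws, p adjusted over 6 pairs = 0.00036 for r and 0.00066 for rho). *phantom* and *disembodied* had r = 0.38 (rho = 0.42, adjusted permutation p = 0.00531 and 0.00078). The other 4 pairs did not pass 0.05 after adjustment, with r between -0.31 for *phantom* and *shadow* (permutation p = 0.0432, adjusted 0.0864) and 0.04 for *disembodied* and *shade*. Without the 2 arrays farthest from the median on the first gene, r was 0.42 for *shadow* and *shade* and 0.49 for *phantom* and *disembodied*, and both stayed past 0.05. Without the 3 arrays that stood apart they were 0.32 and 0.43 (adjusted permutation p = 0.00897 and 0.00066), so that the first value was much smaller without those arrays. Among all transcripts, 3084 had a higher r with *phantom* than *disembodied* had, and 892 a higher r with *disembodied* than *phantom* had. For the other pair, 1147 had a higher r with *shadow* than *shade* had, and 38 a higher r with *shade* than *shadow* had.

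**Figure D5:**
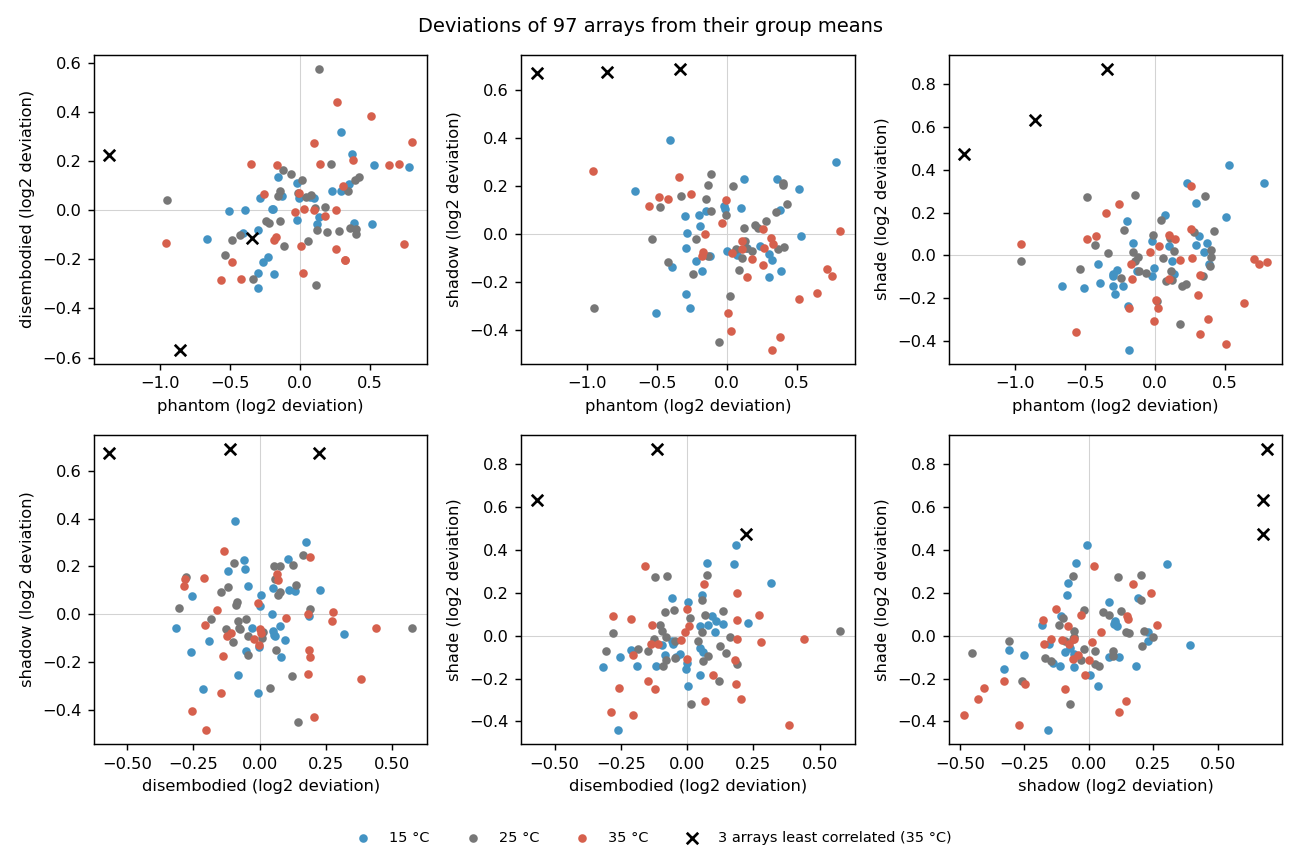
Deviations (log2) of 97 arrays from their group means for the 6 pairs of genes, colored by temperature, with crosses for the 3 arrays that stood apart. The crosses lie high for *shadow* and *shade* and low for *phantom*; r was 0.61 for *shadow* and *shade* with them and 0.32 without.

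The spread of an array, its interquartile range, moved with the same deviations. Its r was 0.57 with *phantom*, 0.29 with *disembodied*, -0.69 with *shadow*, and -0.50 with *shade* (rho = 0.48, 0.36, -0.57, and -0.32, with adjusted permutation p of 5e-05, 0.0227, 5e-05, and 0.00115 for r and 0.0001, 0.0029, 5e-05, and 0.00881 for rho, over 5 genes with *Cyp18a1*), a relation examined after seeing the data. Without the 2 arrays of most extreme range r was 0.50, 0.39, -0.59, and -0.35. Without the 3 arrays these were 0.43, 0.38, -0.50, and -0.19. With the interquartile range removed, all 6 correlations between the genes were positive, from 0.15 for *disembodied* and *shadow* to 0.41 for *shadow* and *shade*, which alone passed by r (adjusted permutation p = 0.00504, and 0.0528 for *phantom* and *disembodied*). By rho, 5 of the 6 pairs then had an adjusted permutation p under 0.05, the exception being *phantom* and *shadow* (0.238). Within temperatures the pairs differed. Over the 32 arrays at 15°C *phantom* and *shade* had r = 0.69 (rho = 0.73, adjusted permutation p = 0.00012 and 0.00012), *disembodied* and *shade* r = 0.66 (rho = 0.69, adjusted permutation p = 0.00012 and 0.00015), and *phantom* and *disembodied* r = 0.58 (rho = 0.62, adjusted permutation p = 0.00042 and 0.00084). Over the 32 arrays at 25°C no pair passed, with r from -0.10 to 0.37. Over the 33 arrays at 35°C, *phantom* and *shadow* had r = -0.73 (rho = -0.70, adjusted permutation p = 0.00174 and 0.00078), *shadow* and *shade* r = 0.80 (rho = 0.63, adjusted permutation p = 0.00183 and 0.00537), and *phantom* and *shade* r = -0.47 (rho = -0.41, adjusted permutation p = 0.031 and 0.0608). Without the 3 arrays these were r = -0.54 (rho = -0.52, adjusted permutation p = 0.0678 and 0.0375), r = 0.36 (rho = 0.41, adjusted permutation p = 0.145 and 0.0998), and r = -0.07 (rho = -0.17, adjusted permutation p = 0.874 and 0.64). Differences between temperatures in these correlations were not tested.

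The transcripts whose pattern over the 24 group means was most like that of each member were found by Pearson correlation over all 14528 transcripts, leaving out the other members. For *phantom* they were FBtr0163716 (FBgn0135748, r = 0.97), FBtr0172954 (r = 0.92), and FBtr0166617 (FBgn0138641, r = 0.91). For *disembodied* they were FBtr0174732 (r = 0.93), FBtr0168736 (FBgn0140751, r = 0.92), and FBtr0161098 (r = 0.91). For *shadow* they were FBtr0175158 (r = 0.85), FBtr0170856 (r = 0.85), and FBtr0168269 (r = 0.83), and for *shade* FBtr0167071 (FBgn0139094, r = 0.90), FBtr0169789 (FBgn0141803, r = 0.89), and FBtr0162729 (r = 0.89). None was paired with a name here. FBtr0163716, the transcript closest to *phantom*, had r = 0.26 with it over the deviations of arrays within groups, while FBtr0166617 had 0.73. Among the members, *disembodied* lay behind 169 transcripts in its likeness to *shadow*, and behind 1417 in its likeness to *phantom*. *Cyp18a1* lay behind 460 in its likeness to *phantom*, closer than any of the 3 synthesis genes.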

How the data were processed

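RNA from whole adult females was hybridized by the authors to NimbleGen arrays with 9 probes per transcript of the *D. mojavensis* annotation 1.3. The authors quantile normalized the fluorescence and summarized it by RMA in NimbleScan 2.5, and the deposited table holds log2 values for 14528 transcripts in 97 arrays. These values were used as deposited, with no filter and no pseudocount. Normalization to a common distribution removes differences in total RNA, so that all values are relative to the other transcripts of an array. Groups came from the labels. One group, OPNM on organ pipe cactus at 35°C, has 2 arrays labeled replicate 3, and both were kept. The labels do not say whether these came from separate groups of females. No 2 arrays held identical values, and the highest correlation between 2 arrays was 0.996.

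The 24 group means were fitted with limma 3.58.1 in R 4.3.3 (lmFit and eBayes, 73 residual degrees of freedom). Contrasts of equally weighted means gave 483 pairwise comparisons, adjusted together by Benjamini-Hochberg with a threshold of 0.01, and 7 interaction terms were tested by moderated F. Correlations and differences between genes within arrays were tested by permutation with 100000 draws in Python 3.11.15. For the latter, the levels of a factor were permuted among arrays of the same group of the other factors. The fit was also run on simulated arrays with known differences. Their noise was independent between transcripts, without shared effects such as those of the arrays that stood apart. No result above rests on them. Alternatives were adjustment within comparisons, no moderation, a filter on dim transcripts, median centring, repeated quantile normalization, the interquartile range as a covariate, array weights, a replicate block, replicates left out, fewer arrays in the fit, and 4 population means. The settings without the least correlated arrays were added after seeing the data.

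The genes named are the 4 members, every gene of a pathway list that could be paired with a row, and the 3 transcripts most like each member over the 24 group means. Rows were paired with names through the study's tables and *phantom* also through its gene model. The members and lists were chosen with earlier results of these data known. Sequences are not analyzed here.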

Additional observations from a re-analysis of the deposited data

Results flagged for a closer look

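In 8 of the 96 combinations of gene and group, 1 array lay far from the others of its group, by a gap to its neighbor that exceeded Dixon's 95% limit as a share of the group's range. Chance alone gives about 1 in 20. Of these arrays, 2 were among the 3 that stood apart. *disembodied* in replicate 4 of PP on organ pipe cactus at 35°C was at 8.27 against 9.02 to 9.04 (gap over range 0.972), and *shade* in replicate 1 of SQ on organ pipe cactus at 35°C at 8.95 against 7.66 to 7.87 (gap over range 0.841). In the latter group *disembodied* in replicate 4 was at 9.59 against 9.06 to 9.09 (gap over range 0.934). *disembodied* in replicate 3 of OPNM on organ pipe cactus at 15°C was at 9.64 against 9.95 to 10.01 (gap over range 0.836). *shadow* was high in replicate 4 of PP on agria at 15°C, at 10.37 against 10.05 to 10.08 (gap over range 0.894), and in replicate 4 of PP on agria at 25°C, at 10.26 against 9.90 to 9.95 (gap over range 0.848). It was low in replicate 3 of SQ on organ pipe cactus at 25°C, at 9.19 against 9.74 to 9.85 (gap over range 0.833). *shade* in replicate 3 of PO on organ pipe cactus at 15°C was at 8.74 against 8.13 to 8.22 (gap over range 0.861). No array was so placed for *phantom*.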

How the results depend on the processing

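The differences between 15 and 35°C kept their direction and their side of the threshold for all 4 genes under every alternative run, as did the fall of *phantom* and *disembodied* from 25 to 35°C and that of *shade* from 15 to 25°C. For the other results the cause of a change was not tested. P-values of differences are limma's, adjusted. For the *disembodied* difference between 15 and 25°C the call was lost with the array interquartile range as a covariate (0.18, adjusted p = 0.0115), with arrays centred on their medians (0.17, adjusted p = 0.0143), and with quantile normalization repeated (0.18, adjusted p = 0.0174), and leaving out 1 replicate number gave 0.15 to 0.23. The *disembodied* regional difference gained a call with adjustment within the comparison (-0.15, adjusted p = 0.00549), the interquartile range (-0.15), array weights (-0.18), centring (-0.16), and repeated quantile normalization (-0.16). Array weights, fitted gene by gene, ran from 0.0616 to 4.47. *phantom* between 15 and 25°C gained a call with the interquartile range (-0.39) and with weights (-0.34). Its cactus difference ranged over 0.37 to 0.46 with 1 replicate number left out and lost its call without replicate 1, and its regional difference of 0.45 did not pass on 4 population means. *shadow* gained calls between 15 and 25°C with the interquartile range (0.21), between 25 and 35°C with the interquartile range (0.17), weights (0.31), and without the 3 or 5 least correlated arrays (0.28 and 0.28), and between regions with weights (-0.14) and without the 5 arrays (-0.15). Its cactus difference turned negative with centring (-0.0394) and repeated quantile normalization (-0.0477), and ranged over -0.0399 to 0.0392 with 1 replicate number left out. *shade* gained calls with weights between cacti (0.11) and between 25 and 35°C (0.14), and there also without the 3 arrays (0.18). The settings that leave out arrays were chosen after seeing the data.

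Population pairs that were not past the threshold changed sign in places. *phantom* in PP minus SQ was -0.0146 with weights and -0.0088 and -0.001 without the 3 and 5 arrays, and -0.0417 to 0.0889 with 1 replicate number left out. *shadow* in OPNM minus PP was 0.0203 with the interquartile range, 0.0585 with weights, and 0.0238 and 0.0522 without the 3 and 5 arrays (-0.0828 to 0.0283 over replicates left out), and in PO minus PP 0.0169, 0.0325, 0.0211, and 0.0324 (-0.0661 to 0.017). *shade* was 0.0096 in PO minus PP without the 5 arrays (-0.0946 to 0.0058) and 5e-04 in PP minus SQ without the 3 (-0.11 to 0.0546). Leaving out replicates, *disembodied* in PO minus SQ ranged over -0.0628 to 0.0866 and *shadow* in OPNM minus PO over -0.0167 to 0.0234.

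Of the correlations of deviations, that of *phantom* and *disembodied* was 0.28 with the interquartile range removed, 0.21 within 25°C, 0.38 within 35°C, and 0.49 there without the 3 arrays, and by r passed 0.05 after adjustment in none of these. By rho it passed with the range removed (adjusted permutation p = 0.0164) and within 35°C without the 3 arrays (0.0375). *shadow* and *shade* did not pass, by r or by rho, within 15°C (0.26), within 25°C (0.37), or within 35°C without the 3 arrays (0.36). *phantom* and *shadow* turned positive with the range removed (0.15), within 15°C (0.22), and within 25°C (0.27), and passed within 35°C (-0.73). *phantom* and *shade* were 0.25 with the range removed, 0.69 within 15°C, -0.47 within 35°C, where they passed by r, -0.0693 there without the 3 arrays, where they did not, and 0.0052, 0.22, and 0.24 without the 2 farthest, the 3, and the 5 arrays. *disembodied* and *shadow* were 0.15 with the range removed, 0.17 within 15°C, and 0.0688, 0.0214, and 0.0206 for the same sets. *disembodied* and *shade* were 0.66 within 15°C, -0.0399 within 25°C, and -0.18 within 35°C.

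Counts of differing pairs among the 24 groups varied more, and the share over all transcripts under these alternatives was not computed. With weights they were 114 for *phantom*, 95 for *disembodied*, 67 for *shadow*, and 72 for *shade*. With the interquartile range they were 104 for *phantom*, 16 for *shadow*, and 28 for *shade*, and centring left 8 for *shade*. Without the 3 arrays *shadow* had 37 and *shade* 41, without the 5 arrays 41 and 41, and without the dimmest transcripts *shadow* had 1. With 1 replicate number left out they ranged over 30 to 52 for *phantom*, 21 to 45 for *disembodied*, 0 to 4 for *shadow*, and 2 to 14 for *shade*. *shade* lay among the 25% dimmest transcripts and has no value with these left out. With the replicate number as a block the *phantom* difference was 1.17 between 25 and 35°C and 0.44 between cacti, and no call changed for the 4 genes. For *Cyp18a1* the cactus difference at 25°C alone lost its call (0.49, adjusted p = 0.0115). Deviations of arrays with the same number had a median correlation of -0.0021, against 0.0116 for different numbers, so that the numbers were not taken to pair arrays. None of the 28 interaction tests passed under any alternative. The number of arrays limits precision, slides and scans were not given in the sources used here, and 4 stocks limit what a region can show.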
